A study of Mus musculus with 6 samples.

Results

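The 10 genes described here encode enzymes that make serine, exchange serine with glycine, break glycine down, and carry the resulting one-carbon units on folate. They were taken by symbol, and all 10 were found among the 40879 genes of the count table and passed the filter on low counts. The set is a pathway chosen by the high Gldc counts of Biotin+ in these same libraries, which were known when it was drawn up. The values of the members in that comparison are therefore a description and carry no test. CD8 T cells had been sorted from MC38-hPD-L1 tumours, grown from a mouse colon carcinoma line on C57BL/6N mice, on day 12. Proximity labelling with a photocatalyst had tagged cells near the tumour cells with biotin. Biotin+ cells, called tumour-neighbouring in the series' text, and Biotin- cells, called tumour-distal, each gave 3 poly-A RNA libraries. Every library came from the same tumour model and strain, and the age of the mice, the number of mice behind a library and whether cells of several mice were pooled are not stated in the labels.

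Serine is made from the glycolytic intermediate 3-phosphoglycerate by the successive action of PHGDH, PSAT1 and PSPH. SHMT1 in the cytosol and SHMT2 in mitochondria pass a carbon from serine to tetrahydrofolate and leave glycine, and the folate-bound carbon is then interconverted by MTHFD2 and MTHFD1L in mitochondria and by the trifunctional MTHFD1 in the cytosol, where it feeds purine and thymidylate synthesis. The glycine cleavage system of mitochondria breaks glycine down with the proteins GLDC, AMT, GCSH and DLD, of which the first binds and decarboxylates glycine. T cells that have been activated through their receptor are known to induce the mitochondrial folate enzymes as they prepare to divide.

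The members are shown here with the DNA before 4 of their start sites. Gldc is the member whose counts led to the set, Mthfd1 and Mthfd2 ordered the libraries within each group as Gldc did under TMM scaling (for Mthfd2 not under scaling to library size), and Phgdh had the highest level per length of the 10. Each sequence is the 250 bases before the RefSeq start site on GRCm38.p6, another build than the GRCm39 that the submitters' processing notes name. It is written 5′ to 3′ on the gene's strand, with the CCAAT box (CCAAT or its reverse complement) in capitals.
Gldc (chr19:30175442-30175691, minus strand): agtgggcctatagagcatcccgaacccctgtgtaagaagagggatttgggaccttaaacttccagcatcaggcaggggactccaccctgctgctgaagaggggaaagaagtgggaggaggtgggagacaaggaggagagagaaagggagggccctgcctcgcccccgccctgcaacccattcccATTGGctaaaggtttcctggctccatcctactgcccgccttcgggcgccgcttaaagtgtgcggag
Mthfd1 (chr12:76254982-76255231, plus strand): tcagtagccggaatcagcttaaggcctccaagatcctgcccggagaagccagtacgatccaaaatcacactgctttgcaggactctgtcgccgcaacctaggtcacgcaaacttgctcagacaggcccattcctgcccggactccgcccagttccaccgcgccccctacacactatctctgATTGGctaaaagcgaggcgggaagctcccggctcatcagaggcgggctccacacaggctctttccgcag
Mthfd2 (chr6:83317605-83317854, minus strand): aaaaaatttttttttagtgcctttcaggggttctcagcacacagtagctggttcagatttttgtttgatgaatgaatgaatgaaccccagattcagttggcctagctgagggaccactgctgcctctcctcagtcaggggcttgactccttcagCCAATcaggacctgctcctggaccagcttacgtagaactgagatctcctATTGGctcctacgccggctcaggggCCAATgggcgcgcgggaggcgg
Phgdh (chr3:98339970-98340219, minus strand): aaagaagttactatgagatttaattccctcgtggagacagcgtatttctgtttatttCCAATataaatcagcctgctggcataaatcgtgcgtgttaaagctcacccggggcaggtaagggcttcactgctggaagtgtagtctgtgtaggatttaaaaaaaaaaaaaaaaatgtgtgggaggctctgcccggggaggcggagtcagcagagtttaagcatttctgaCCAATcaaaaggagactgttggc

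Gldc and Mthfd1 each held 1 CCAAT match, starting 66 and 69 bases before the start site, Mthfd2 held 3 and Phgdh 2. Over all 10 members, 8 of 11 windows (Psat1 has 2) held the letters, against 33.8% of the 32851 mouse windows of that length. The GC box GGGCGG was in 7 of the 11 windows and in 32.7% of all. The letters TGATGNAA, a form of the composite site that the stress factor ATF4 binds, were in 0 of the 11 windows and in 3.45% of all. The E-box CACGTG, a letter sequence bound by MYC among others, was in 0 of the 11 and in 6.02% of all. Both strands were searched, and a match or its lack is a property of these letters only.

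In Biotin+ cells Gldc transcripts were more abundant in each of the 3 libraries than in any Biotin- library. The remaining 9 enzymes had ranges that overlapped between the groups. Gldc was therefore 1 of 10 members whose CPM ranges did not overlap between the groups, where 29.2% of all 13360 genes tested had such ranges (13.4% with Biotin+ above and 15.9% with it below). It was also the 1 member that the fit over all genes called (adjusted p under 0.05 in edgeR's quasi-likelihood test), where that fit called 8.26% of all genes tested, 1.53% as higher and 6.72% as lower in Biotin+. In the fit with replicate number as a block, Gldc was again the 1 member called, where 17.6% of all genes were called, 5.6% as higher and 12% as lower. No member was called lower, with 0 in edgeR, 0 at an unadjusted p below 0.05 and 0 in DESeq2. The median log2 fold change (Biotin+ minus Biotin-) was 0.03 over the 10 members and 0.06 over all genes tested. Because the members were chosen with this comparison in view, nothing is read from these counts.

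**Figure D1:**
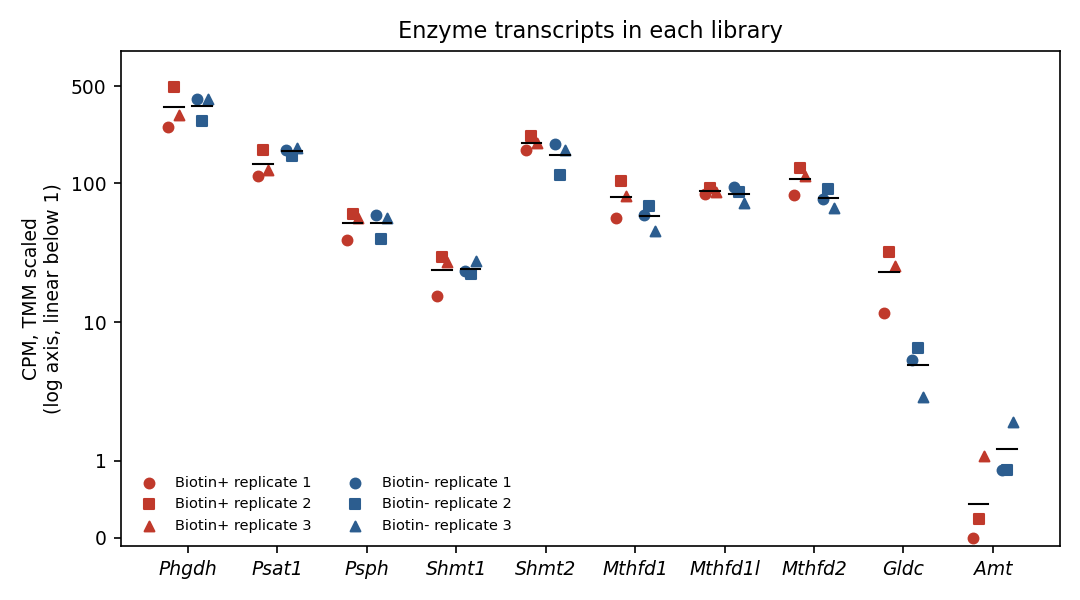
Level of each enzyme's transcript in every library, in CPM (reads scaled to library size by TMM), on a log axis that is linear below 1. Red marks Biotin+ and blue Biotin-, symbols mark the replicate number, and black lines are means of 3 libraries. Gldc is at 11.5 to 31.9 CPM in Biotin+ against 2.86 to 6.47 CPM in Biotin-, and the other enzymes overlap.

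The libraries held 16423106 to 19640693 counts and 15780 to 18477 genes with a count, and the Biotin+ replicate 2 library had the lowest TMM scaling factor (0.815, against 0.98 to 1.13 in the other 5). Cd8a, the coreceptor that defines the sorted cells, averaged 1226 ± 63.6 CPM in Biotin+ against 653 ± 189 CPM in Biotin- (SD, n = 3 each). Summed fibroblast and endothelial markers (14 genes) were at 110.4 to 246.1 CPM in Biotin+ against 816.1 to 1206 CPM in Biotin-, macrophage and monocyte markers (12 genes) at 372 to 1081 against 826.6 to 2901 CPM, and epithelial and tumour cell markers (12 genes) at 27.13 to 138.3 against 16.97 to 58.33 CPM. Of all genes tested, 205 were called higher and 898 lower in Biotin+ (18.6% of calls higher). With the libraries scaled to 15 CD8 T cell identity genes in place of TMM, the median gene's log2 fold change shifted by -0.743, and 26 were called higher and 3745 lower (0.689% higher). Nothing in the labels ties a replicate to an animal of its own, and p-values then measure only the spread between these libraries, which may be technical. In bulk samples, fewer cells of a type and less RNA per cell cannot be told apart.

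In the glycine cleavage system, Gldc, the glycine decarboxylase, was at 11.5, 31.9 and 25.2 CPM in Biotin+ replicates 1, 2 and 3 and at 5.35, 6.47 and 2.86 CPM in Biotin- replicates 1, 2 and 3. The lowest Biotin+ library, replicate 1, lay above the highest Biotin- library, replicate 2, and their exact 95% binomial intervals, which cover counting error alone, ran up to 13.2 CPM and to 7.75 CPM. Group means were 22.9 ± 10.4 and 4.90 ± 1.85 CPM (SD, n = 3 each), and the log2 fold change was 2.22 ± 0.42 (SE). Behind these values stood 214 to 511 reads per library in Biotin+ and 53 to 118 in Biotin-. Gldc was no longer called when Biotin+ replicate 2 was left out (log2 fold change 1.88 ± 0.43 SE) or Biotin- replicate 3 was left out (1.95 ± 0.45 SE), and it was called without each of the other 4 libraries in turn. Of the 75-base windows of Gldc, 0.499% also occur in 45 other annotated genes, of which the 31 in the count table summed to 19477 to 22994 reads per library. How many reads of those windows were counted for Gldc was not tested. The fold change was 2.17 ± 0.34 (SE) with the replicate number as a block, and 1.48 ± 0.40 (SE) under the scaling to CD8 T cell identity genes, which lies 2.22 above the shift of the median gene.

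The marker lists were set beside Gldc library by library. Among the Biotin+ libraries Gldc was lowest in replicate 1, which had the highest epithelial and tumour marker sum (138.3 CPM, of which Cdh1, which encodes E-cadherin, made up 128.7). Of those 12 markers, Krt20, Cldn3, Cdx2 and Krt7 had no count in any library, and Krt8, Krt19 and Cldn4 had none in Biotin+. Epcam and Lgals4 had counts in all 6 libraries, Krt18 had 29, 7 and 3 reads in Biotin+ and 2, 2 and 7 in Biotin- replicates 1, 2 and 3, and Cldn7 had 1, 7 and 3 reads in Biotin+ and none in Biotin-. The fibroblast and endothelial sum was higher in each Biotin- library than in each Biotin+ library, which is opposite to Gldc. The summed CD8 T cell identity genes (15 genes) were at 8553, 10980 and 8446 CPM in Biotin+ replicates 1, 2 and 3 and at 4897, 6406 and 4422 CPM in Biotin-, and thus moved between the groups in the direction of Gldc. Markers of other lymphocytes and dendritic cells (12 genes) summed to 36.4 to 69.41 CPM in Biotin+ against 29.57 to 68.01 CPM in Biotin-, and neutrophil markers (7 genes) to 6.843 to 20.38 against 9.597 to 13.09 CPM. Of the lymphocyte and dendritic markers, 8 were tested and 3 had a positive log2 fold change. None passed in edgeR, and with the block 1 was higher and 2 were lower in Biotin+. The higher one was Klrb1c, a receptor gene of natural killer cells, at 18.3 ± 8.11 and 6.97 ± 5.47 CPM (SD, n = 3 each, edgeR adjusted p = 0.159, and 0.000758 with the block). It moved between the groups in the direction of Gldc. Within Biotin+ it was highest in replicate 1 (26.05 CPM), where Gldc was lowest. Ncr1, another natural killer cell gene of the list, had 7, 1 and 0 reads in Biotin+ replicates 1, 2 and 3. In Biotin- it had 1, 0 and 0 reads. The 2 lower ones in the blocked edgeR fit were Cd4 (adjusted p = 0.0353) and Siglech (0.00374). Without the block their edgeR adjusted p was 0.0985 and 0.106. Cd4 and Ncr1 were named after their values were seen. The part of these shifts in the Gldc difference was not tested.

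Amt, the aminomethyltransferase that acts after Gldc in the same complex, was the least abundant member. It had 0, 4 and 18 reads in Biotin+ replicates 1, 2 and 3 and 18, 16 and 35 reads in Biotin- replicates 1, 2 and 3, which is 0, 0.25 and 1.09 CPM against 0.876, 0.877 and 1.89 CPM. The count of 0 in Biotin+ replicate 1 allows a level of up to 0.162 CPM (3 reads), or 0.199 CPM as the upper end of the exact 95% binomial interval. Biotin+ replicate 3 lay within the range of Biotin-, so the groups overlapped, and the log2 fold change was -1.44 ± 1.04 (SE). Without Biotin+ replicate 3 it was -3.27 and without Biotin+ replicate 1 it was -0.84, so that single libraries set its size.

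Gcsh, the lipoyl carrier of the complex, was at 24.5 ± 2.24 CPM in Biotin+ against 20.9 ± 2.06 CPM in Biotin- (SD, n = 3 each, log2 fold change 0.23 ± 0.21 SE, edgeR adjusted p = 0.576). Dld, the dehydrogenase that this complex shares with pyruvate dehydrogenase and which was named after its values were seen, was at 80.8 ± 5.72 and 80.5 ± 11.7 CPM (SD, n = 3 each, log2 fold change 0.00 ± 0.19 SE, edgeR adjusted p = 0.992). The log2 ratio of Gldc to Amt reads within a library (0.5 added to each count) was 8.74, 6.83 and 4.49 in Biotin+ replicates 1, 2 and 3 and 2.58, 2.84 and 0.59 in Biotin-. The ratio carries the Gldc counts that led to the set, its lower term is 0 to 35 reads, and the value of 8.74 rests on the count of 0, so nothing is read from its separation.

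In serine synthesis, Phgdh, the dehydrogenase that takes the first step, was at 254, 493 and 312 CPM in Biotin+ replicates 1, 2 and 3 and at 404, 279 and 404 CPM in Biotin-. The Biotin+ libraries held both the highest and the lowest of the 6 values. The log2 fold change was -0.04 ± 0.27 (SE). Of the 75-base windows of Phgdh, 35.8% also occur in 13 other annotated genes, most of them predicted gene models. Of those 13 symbols 1 was a row of the count table, with at most 1 read in a library. How reads that fit several genes were treated is not given, so the level of Phgdh is uncertain.

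Psat1, the aminotransferase of the next step, was at 112, 173 and 125 CPM in Biotin+ and at 174, 156 and 179 CPM in Biotin- replicates 1, 2 and 3. Biotin+ replicates 1 and 3 lay below all Biotin- libraries, while replicate 2 lay among them. The log2 fold change was -0.31 ± 0.21 (SE). Psph, the phosphatase that releases serine, was at 38.9, 60.2 and 55.7 CPM in Biotin+ and at 58.6, 39.9 and 56.1 CPM in Biotin-. Its groups covered nearly the same range, and the log2 fold change was 0.00 ± 0.24 (SE). Psph shared 8.07% of its windows with Cct6a, which lies on the opposite strand and overlaps 10.4% of its exon bases. Cct6a had 3621 to 6221 reads per library where Psph had 721 to 1204, so the level of Psph is uncertain.

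Of the enzymes that exchange serine and glycine, Shmt2, the mitochondrial one, was at 174, 220 and 195 CPM in Biotin+ replicates 1, 2 and 3 and at 193, 115 and 174 CPM in Biotin-. Biotin- replicate 2 was the low library and the others overlapped, with a log2 fold change of 0.29 ± 0.23 (SE). Shmt1, the cytosolic enzyme, was at 15.4, 29.2 and 27.1 CPM in Biotin+ and at 23.2, 22.2 and 27.4 CPM in Biotin- (log2 fold change -0.02 ± 0.27 SE). Biotin+ replicate 1 was the low library here. Smcr8, a gene on the opposite strand, overlaps 4.74% of the exon bases of Shmt1 and had 320 to 882 reads per library where Shmt1 had 285 to 507, so the level of Shmt1 is uncertain too. Within a library, which needs no scaling between libraries, the log2 ratio of Shmt2 to Shmt1 reads was 3.50, 2.91 and 2.84 in Biotin+ and 3.06, 2.37 and 2.66 in Biotin-. The group means of this ratio differed by 0.39, with an SD of 0.36 in Biotin+ and 0.35 in Biotin- (n = 3 each). Between libraries of the same number the difference was 0.44, 0.54 and 0.18 for numbers 1, 2 and 3 (SD 0.19), higher in Biotin+ in 3 of 3.

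Among the folate carbon enzymes, Mthfd2, the mitochondrial dehydrogenase and cyclohydrolase, was at 81.8, 128 and 113 CPM in Biotin+ replicates 1, 2 and 3 and at 76.4, 90.7 and 66.1 CPM in Biotin-. Biotin+ replicates 2 and 3 lay above every Biotin- library and replicate 1 among them (log2 fold change 0.47 ± 0.22 SE). Mthfd1, the cytosolic trifunctional enzyme, was at 55.8, 104 and 80.5 CPM in Biotin+ and at 58.9, 68.5 and 45.4 CPM in Biotin-, with the same libraries above and among the Biotin- values (log2 fold change 0.48 ± 0.26 SE). Mthfd1l, the mitochondrial enzyme that releases formate, was at 83.8, 92.4 and 87.0 CPM in Biotin+ and at 93.5, 86.5 and 72.3 CPM in Biotin- (log2 fold change 0.06 ± 0.18 SE). Its 6 values lay between 72.3 and 93.5 CPM and did not separate the groups.

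The reads of the 2 mitochondrial enzymes were set against those of Mthfd1 within each library, as a description without a test. The log2 ratio of Mthfd2 to Mthfd1 reads was 0.45 ± 0.13 in Biotin+ against 0.44 ± 0.09 in Biotin- (SD, n = 3 each), with all 6 libraries between 0.30 and 0.55. The log2 ratio of Mthfd1l to Mthfd1 reads was 0.18 ± 0.38 in Biotin+ against 0.56 ± 0.19 in Biotin- (SD, n = 3 each). Its low value of -0.17 was that of Biotin+ replicate 2, and Biotin+ replicate 1, at 0.59, lay within the Biotin- range of 0.34 to 0.67. Between libraries of the same number it was lower in Biotin+ in 3 of 3 (differences of -0.08, -0.51 and -0.56).

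**Figure D2:**
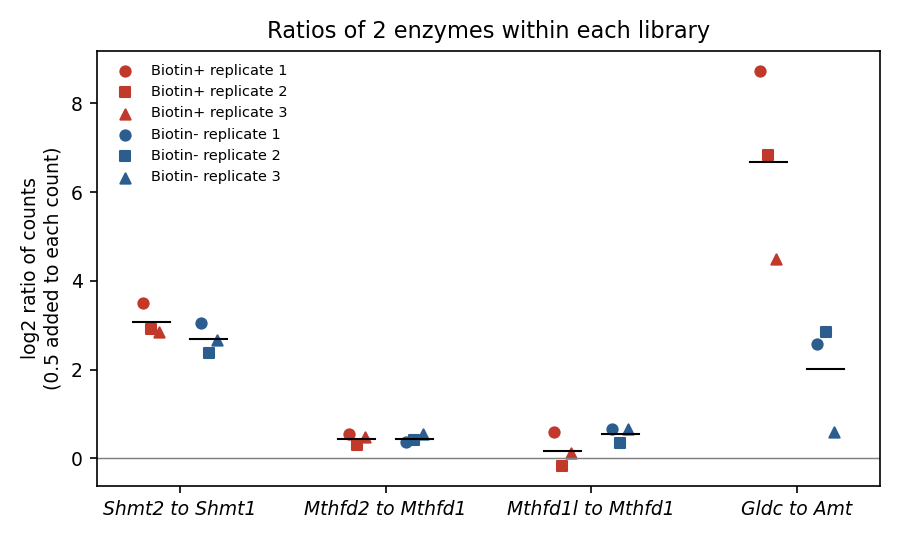
Log2 ratio of the reads of 2 enzymes within each library, with 0.5 added to each count, by group (red Biotin+, blue Biotin-) and replicate number, with black lines at the means of 3 libraries. Mthfd2 to Mthfd1 is nearly level across the 6 libraries, at 0.30 to 0.55, and Gldc to Amt, which rests on few Amt reads and on the Gldc counts that led to the set, is at 4.49 to 8.74 in Biotin+ and 0.59 to 2.84 in Biotin-.

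Scaling the libraries to CD8 T cell identity genes shifted the median gene by -0.743 and with it the members. There Shmt2, Mthfd1, Mthfd2, Mthfd1l and Psph had a negative log2 fold change where it was positive or 0.00 with TMM, and Psat1 (-1.10 ± 0.22 SE), Phgdh (-0.85 ± 0.27 SE) and Mthfd1l (-0.68 ± 0.21 SE) passed the threshold on the lower side. That fit called 3745 of all 13360 genes tested as lower in Biotin+. Relative to the median gene, Shmt2 was at 0.25, Mthfd1 and Mthfd2 at 0.47 each, Mthfd1l at 0.06, Psph at -0.04, Phgdh at -0.11 and Psat1 at -0.35, close to their values with TMM. The 15 genes of this scaling all had a positive log2 fold change with TMM, 13 of them at an unadjusted p under 0.05 in edgeR. The cause of the changes of sign was not tested. The ratios within a library are not touched by the scaling.

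**Figure D3:**
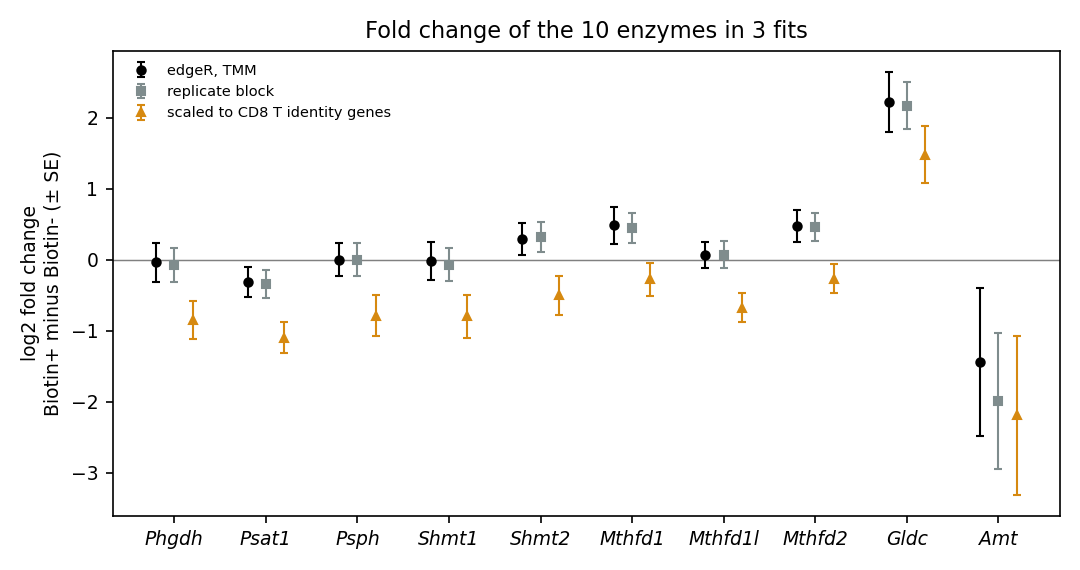
Log2 fold change of each enzyme, Biotin+ minus Biotin-, with bars of 1 standard error, in the edgeR fit with TMM scaling (black), with the replicate number as a block (grey) and with libraries scaled to CD8 T cell identity genes (orange). Gldc lies above 0 in all 3 fits (2.22, 2.17 and 1.48), and the identity scaling places the other 9 enzymes below 0.

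Levels can be set between genes per kilobase of merged exon (GENCODE M21 lengths). In this unit Phgdh was highest, at 102 to 198 CPM per kilobase over the 6 libraries, and its range did not overlap that of Shmt2 (36.9 to 70.9). Psat1, Mthfd2, Mthfd1l, Mthfd1 and Psph followed with means of 36.0, 26.6, 19.4, 15.5 and 11.9 CPM per kilobase, and each neighbour in that order overlapped the next. Shmt1 lay apart below Psph, at 3.96 to 7.52 against 8.98 to 13.9 CPM per kilobase. Gldc, at 0.470 to 5.24 CPM per kilobase, overlapped both Shmt1 above it and Amt below it (0 to 0.776). Even in Biotin+, then, Gldc averaged 3.76 ± 1.71 CPM per kilobase (SD, n = 3) where Shmt2 averaged 63.1 ± 7.49.

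Within each group the members did not all move together. In Biotin+, 9 of 10 members (all but Amt) were highest in replicate 2, next in replicate 3 and lowest in replicate 1, an order shown by 21.4% of all genes tested. With scaling to library size alone 4 of 10 members kept this order (Gldc, Mthfd1, Phgdh and Psat1), against 13.4% of genes, and Mthfd2 was highest in replicate 3. In Biotin-, the members divided. Gldc, Mthfd1 and Mthfd2 were highest in replicate 2 and lowest in replicate 3, an order that 21.9% of genes showed. Both orders of Gldc were shared by 4.53% of genes. Phgdh, Psat1, Psph, Shmt1 and Shmt2 were lowest in that same replicate 2. In log2 CPM, replicate 2 lay above its Biotin- group mean by 0.47 for Gldc, 0.27 for Mthfd1 and 0.23 for Mthfd2, and was at -0.45 for Shmt2, -0.36 for Phgdh and -0.35 for Psph.

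**Figure D4:**
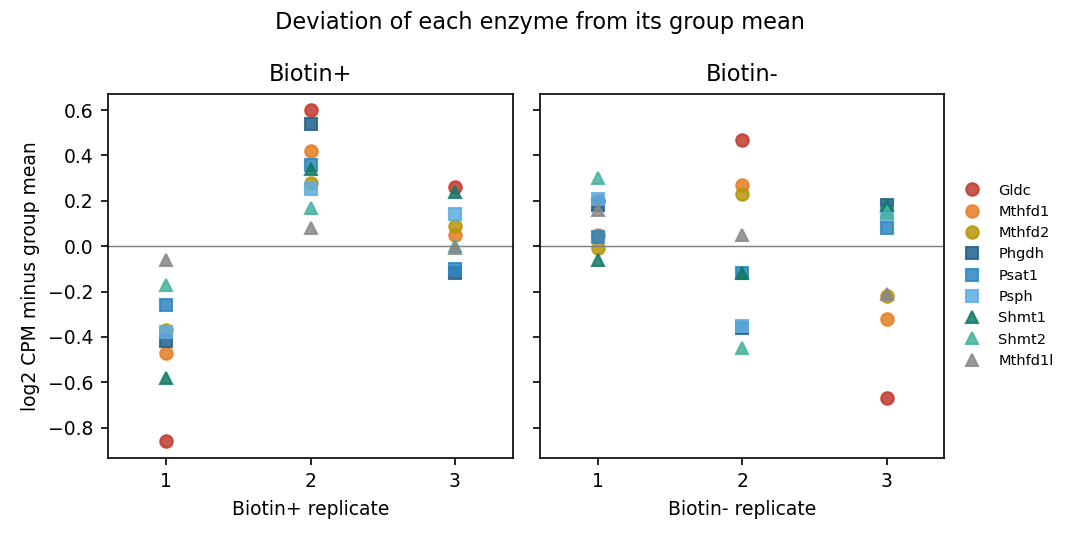
Deviation of log2 CPM from the group mean for 9 enzymes (Amt, with few reads, is left out), by replicate in Biotin+ (left) and Biotin- (right). Circles are Gldc, Mthfd1 and Mthfd2, squares the serine synthesis enzymes, triangles Shmt1, Shmt2 and Mthfd1l. In Biotin- replicate 2 the circles lie at 0.23 to 0.47 and the squares and both Shmt genes below 0.

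The summed level of DNA replication genes was set beside that of Gldc, Mthfd1 and Mthfd2. The sum of 20 S phase genes was 2737, 4951 and 2778 CPM in Biotin+ replicates 1, 2 and 3 and 2238, 2871 and 2150 CPM in Biotin-, so that replicate 2 was high in both groups. The sum had the library order of Gldc in both groups with TMM but not in Biotin- when scaled to library size, and 6 of the 20 genes had both orders of Gldc. Of the 20, 0 passed in edgeR, 4 had an unadjusted p under 0.05 and were higher, DESeq2 called 0, and 4 were called higher with the replicate block. All 20 had a positive log2 fold change, with a median of 0.51 (0.06 over all genes tested), and under the identity scaling the median was -0.24. Among them Rrm2, a ribonucleotide reductase subunit, was at 118 ± 38.0 and 70.3 ± 20.7 CPM (SD, n = 3 each, log2 fold change 0.74 ± 0.28 SE, edgeR adjusted p = 0.145), and the sliding clamp Pcna did not pass (log2 fold change 0.66 ± 0.29 SE, edgeR adjusted p = 0.205). The part of cell division in the levels of Mthfd1, Mthfd2 and Gldc was not tested.

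Over the 6 libraries and 8438 genes with a mean of at least 10 CPM, the genes whose log2 CPM was most like that of Gldc were Nploc4, Dusp14, Pgap2, Tyk2 and Smn1, with Pearson correlations of 0.993, 0.993, 0.989, 0.988 and 0.987. The 6 libraries fall into 2 groups, so these values describe likeness and carry no test. None of the 5 has a change as large as Gldc, with log2 fold changes from 0.24 for Pgap2 to 0.66 for Tyk2.

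The rest of the pathway was followed in 9 further lists of 122 genes that are no members, S phase and replication genes included, of which 110 were tested. Of these, 1 was called as higher and 8 as lower in Biotin+, where the fit called 1.53% and 6.72% of all genes. The blocked fit called 9 as higher and 14 as lower, where it called 5.6% and 12% of all genes. The lists too were chosen with earlier results known.

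Of 12 genes around glycine breakdown 7 were tested, and 1 was lower. Sardh, the mitochondrial sarcosine dehydrogenase, which yields glycine, was at 3.13, 2.62 and 2.54 CPM in Biotin+ and at 16.4, 11.6 and 21.6 CPM in Biotin- replicates 1, 2 and 3. It fell by 2.58 ± 0.33 (SE) on the log2 scale (edgeR adjusted p = 0.00577), with no overlap, and passed without each library in turn. Lipt1 and Lipt2, which act in lipoate transfer, were below 2 CPM in every library and did not pass (log2 fold changes -1.85 ± 0.85 and -1.29 ± 1.16 SE).

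Of 12 other folate cycle genes 10 were tested, and 1 was lower. Aldh1l2, the mitochondrial enzyme that oxidises formyl-tetrahydrofolate, was at 3.0 to 12.2 CPM in Biotin+ and at 19.2 to 58.2 CPM in Biotin- (log2 fold change -2.30 ± 0.51 SE, edgeR adjusted p = 0.0235). It was not called once Biotin+ replicate 2 or 3, or Biotin- replicate 1 or 3, was left out (adjusted p 0.0697 to 0.0789, log2 fold change -2.41 to -1.77). Mthfd2l, a relative of Mthfd2, was at 2.28 ± 0.580 and 5.35 ± 0.997 CPM (SD, n = 3 each, log2 fold change -1.23 ± 0.40 SE, edgeR adjusted p = 0.0943, and 0.0403 with the replicate block). Folr2, a folate receptor of macrophages, reached 36.9 CPM in Biotin- replicate 1, the library with the highest macrophage marker sum, and was at or below 5.68 CPM in the other 5 (log2 fold change -2.58 ± 0.85 SE, edgeR adjusted p = 0.0968, and 0.00257 with the block). With the block 3 genes of the list were lower, Aldh1l2, Mthfd2l and Folr2.

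The methionine cycle and transsulfuration list had 13 of 15 genes tested, with 1 lower (2 with the block). Mtap, which salvages methionine from methylthioadenosine, was at 29.6 ± 1.01 CPM in Biotin+ against 48.9 ± 5.28 CPM in Biotin- (SD, n = 3 each, log2 fold change -0.73 ± 0.19 SE, edgeR adjusted p = 0.0447). It was not called once any 1 of the 6 libraries was left out (adjusted p 0.0583 to 0.203). Ahcy, which hydrolyses S-adenosylhomocysteine, did not pass (log2 fold change 0.55 ± 0.25 SE, edgeR adjusted p = 0.234). The glutathione synthesis list of 6 genes also holds genes of glutathione breakdown. Of its genes 0 passed in edgeR, 0 had an unadjusted p under 0.05, DESeq2 called 0, and 1 was lower with the block. The lower gene was Chac1, whose product breaks glutathione down. Its log2 fold change was -1.24 ± 0.36 (SE) in the blocked edgeR fit (adjusted p = 0.0248). Without the block it was at -1.14 ± 0.63 (SE, edgeR adjusted p = 0.329).

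Purine synthesis, which takes up both glycine and folate-bound carbon, had 1 of 13 genes higher and 0 lower (edgeR gave 0 lower at an unadjusted p under 0.05, and DESeq2 called 0 lower). The gene was Adssl1, an adenylosuccinate synthase, at 49.5, 79.9 and 43.4 CPM in Biotin+ and at 34.1, 29.4 and 24.6 CPM in Biotin- (log2 fold change 0.97 ± 0.26 SE, edgeR adjusted p = 0.0479). It was not called once any library other than Biotin+ replicate 3 was left out (adjusted p 0.0531 to 0.204, and a log2 fold change of 0.63 without Biotin+ replicate 2), nor under DESeq2 size factors, library size scaling or the identity scaling. Impdh1, an enzyme of guanine nucleotide synthesis, did not pass (log2 fold change 0.60 ± 0.19 SE, edgeR adjusted p = 0.087) but did with the block (0.0293). The 2 folate-dependent steps of the pathway are catalysed by Gart and Atic, and Atic did not pass (log2 fold change -0.40 ± 0.22 SE, edgeR adjusted p = 0.308).

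Of 12 transporters of serine, glycine and folate tested, 0 passed in edgeR, 3 were lower at an unadjusted p under 0.05, DESeq2 called 1 lower, and the replicate block 1 lower. The gene called with the block was the glycine transporter Slc6a9, at 7.34 ± 5.83 CPM in Biotin+ against 20.1 ± 9.20 CPM in Biotin- (SD, n = 3 each, edgeR adjusted p = 0.138, and 0.00176 with the block). Slc38a2, a neutral amino acid transporter, was at 250 ± 42.6 and 349 ± 59.3 CPM (SD, n = 3 each, edgeR adjusted p = 0.217), and Sfxn3, a mitochondrial serine transporter, did not pass (log2 fold change -0.42 ± 0.20 SE, edgeR adjusted p = 0.232). Among 12 serine-using genes tested, 1 was lower. It was Sdsl, a serine dehydratase relative, which had 2 reads over the 3 Biotin+ libraries and 22, 11 and 40 reads in Biotin- (edgeR adjusted p = 0.0315), and which was not called once any 1 of the 6 libraries was left out (adjusted p 0.0531 to 0.171). Sptlc1, a subunit of serine palmitoyltransferase, did not pass (log2 fold change 0.39 ± 0.20 SE, edgeR adjusted p = 0.279).

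ATF4 is a transcription factor of the amino acid stress response that is known to induce Phgdh, Psat1, Shmt2 and Mthfd2. Of 18 genes of its pathway 4 were lower and 0 higher in edgeR, with a median log2 fold change of -0.22. For 0 higher, the counts were 2 at an unadjusted p under 0.05, 1 by DESeq2 and 2 with the block, which gave 6 lower. Nupr1, a stress-induced nuclear protein, fell by 2.09 ± 0.31 (SE) on the log2 scale (7.62 ± 1.81 against 32.5 ± 11.3 CPM, SD, n = 3 each, edgeR adjusted p = 0.00657) and passed without each library in turn. Atf5, a related factor, was at 59.2 ± 19.6 and 161 ± 67.5 CPM (SD, n = 3 each, log2 fold change -1.44 ± 0.33 SE, edgeR adjusted p = 0.0255). The lipoprotein receptor gene Vldlr fell by 2.24 ± 0.58 (SE) on the log2 scale (edgeR adjusted p = 0.0408) and Pycr1, of proline synthesis, fell as well (log2 fold change -1.20 ± 0.32 SE, edgeR adjusted p = 0.0459). Atf5, Vldlr and Pycr1 each dropped out of the calls when 1 of 4 libraries was left out, namely Biotin+ replicates 1 and 2 and Biotin- replicates 1 and 3 (adjusted p 0.0538 to 0.113 for Atf5, 0.0849 to 0.155 for Vldlr and 0.101 to 0.207 for Pycr1). The 8 lower genes of these lists moved in the same direction as the fibroblast and endothelial markers, of which 7 of 11 tested were lower (median log2 fold change -2.27, Col3a1 at 64.5 ± 40.7 against 393 ± 33.1 CPM, SD, n = 3 each). The part of those cells in the 8 genes was not tested.

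**Figure D5:**
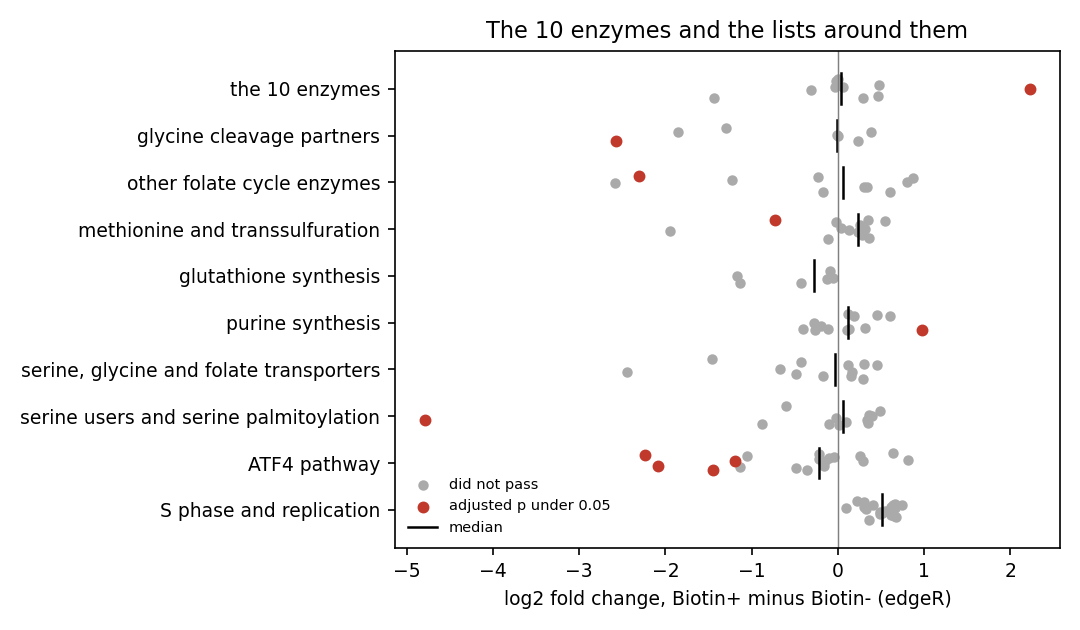
Log2 fold change (Biotin+ minus Biotin-, edgeR) of every tested gene of the 10 enzymes and of 9 lists around them, with genes of an adjusted p under 0.05 in red, the others in grey, and a black line at each median. Gldc is the red point at 2.22 in the top row, and the red points of the other rows are lower in Biotin+ except Adssl1 at 0.97.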

How the data were processed

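CD8 T cells of 3 Biotin+ and 3 Biotin- samples were profiled by poly-A RNA sequencing. The deposited values are raw counts, 1 row for each gene symbol, per the labels. The submitters' processing notes name the build GRCm39 and the tools featureCounts 2.0.1, STAR 2.7.10a, Trim Galore 0.6.7 and Picard 1.14, and give no roles. The annotation, the strand setting and the handling of reads with several matches are not stated there, so the reads of genes that overlap on either strand cannot be separated. Titles gave groups and replicate numbers. The members and all lists were chosen with earlier results of these data known. Whether a member was called in the fit over all genes is given as a description, without its p-value, and supports nothing.

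All genes were tested in R 4.3.3 with the quasi-likelihood test of edgeR 4.0.16, after filterByExpr and TMM, with robust dispersion and the group as the only term. P-values were adjusted by Benjamini-Hochberg, and 0.05 was the threshold. SE was taken as the fold change (log2) over the square root of F. CPM are TMM-scaled. Of 40879 genes, 18545 had no count and 13360 were tested. Libraries of a group differed beyond sampling noise (35.6 to 103 for chi-square over its degrees of freedom), and intervals and floors cover counting error only. Deviations of log2 CPM from group means correlated at 0.366, 0.263 and 0.393 for libraries with the same number and at -0.0721 to -0.276 otherwise. Libraries of 1 number were treated as pairs in the replicate block and in the ratio differences between libraries of the same number. The main fit did not pair them. Alternatives were DESeq2 1.42.0, limma-voom (limma 3.58.1), other scalings and filters, the replicate block and leaving out each library. The scaling to identity genes set each library by the median of 15 CD8 T cell genes.

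Genes were named by rule: the 10 members, up to 4 genes with the smallest p of each further list, up to 3 genes of highest mean CPM in each marker list, Cd8a, and the 5 genes of at least 10 CPM most like Gldc, without predicted gene models and receptor segments. Of the genes this rule names, 1 is not reported here. Other named genes are marked, apart from markers given at 0 and the annotated overlaps of a member. Adss1 and Adss2 were found in the table as Adssl1 and Adss. Exon lengths, overlaps and shared 75-base windows came from GENCODE M21 transcripts on GRCm38, and sequences from RefSeq on GRCm38.p6.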

Additional observations from a re-analysis of the deposited data

How the results depend on the processing

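Gldc kept a positive log2 fold change in every alternative run, from 1.43 (replicate block with the identity scaling, chosen after seeing the data) to 2.55 (without Biotin+ replicate 1), and lost its call without Biotin+ replicate 2 or Biotin- replicate 3. Members called higher therefore ranged from 0 to 1 over the libraries left out. Members called lower were 3 of 10 under the identity scaling, where 3745 of all 13360 genes tested were called lower. They were 6 of 10 when the identity scaling was joined to the replicate block, where 7342 of all genes were called lower. Mthfd1l turned to -0.68 under both and Psph to -0.75 under the joint fit. With the replicate block alone, no call of a member changed. The identity scaling shifted the median gene by -0.743, and the cause of these changes was not tested.

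All genes called higher were 205, and became 84 with library size scaling, 26 with the identity scaling, 396 with no filter, 471 by DESeq2, 748 with the replicate block, 96 with block and identity scaling, and 23 to 200 with a library left out. All genes called lower were 898, and became 3745 (identity scaling), 1495 (no filter), 1389 (DESeq2), 1599 (replicate block), 7342 (block and identity scaling) and 239 to 1044 (a library left out). Genes of the further lists called higher were 1, and became 0 with DESeq2 size factors, library size scaling, the identity scaling and block with identity scaling, 4 with no filter, 3 by DESeq2, 9 with the replicate block and 0 to 1 with a library left out. Those called lower were 8, and became 38 (identity scaling), 14 (replicate block), 65 (block and identity scaling) and 2 to 7 (a library left out). Depth limits Amt most, with 0 to 35 reads per library.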
